A study of Homo sapiens with 18 samples.

Results

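The response of THP-1 cells to lipopolysaccharide (LPS) was described in cells that had received a small interfering RNA (siRNA) against TRAFD1. The comparison set 3 libraries with LPS (KD_4, KD_5 and KD_6) against 3 unstimulated libraries (KD_1, KD_2 and KD_3), so that it used 6 of the 18 libraries of the study and all of the 16678 genes, of 63677 in the table, that passed a filter on low counts. THP-1 is an established human monocytic leukaemia cell line. All 6 cultures carried 25 nM of the TRAFD1 siRNA, delivered with a lipid reagent, and at 72 h after transfection they were given either 10 ng/ml of LPS from Escherichia coli or medium alone for 4 h. The study also held 3 unstimulated and 3 LPS libraries of cells with a scrambled siRNA (SCR) and of cells without siRNA (WT), at the same dose and time of LPS, and these entered the shared fit, where they help set the filter and the estimate of spread, and are set beside the KD response below. The labels differ on WT, which 1 field calls untreated and another describes as given transfection mix but no siRNA. The knockdown rests on 1 siRNA in 1 cell line, and each treatment was done in triplicate with no more said of how the cultures were separated, so that the p-values measure only the spread between these libraries, which may be technical.

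LPS, a component of the outer membrane of Gram-negative bacteria, is handed by CD14 to the receptor TLR4 with its partner MD-2 (gene LY96). TLR4 signals through the adaptors MyD88 and TRIF to the IkB kinases, which release the transcription factor NF-kB from its IkB inhibitors, and to MAP kinases and interferon regulatory factors. In monocytes the outcome is the transcription of cytokines, chemokines and adhesion molecules, together with inhibitors such as NFKBIA and TNFAIP3 that shut the signal down again. TRAFD1 encodes a TRAF-type zinc finger protein known as a feedback inhibitor of innate immune signalling.

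Every library of the comparison held between 11801334 and 17065865 counts, against 8206023 to 22344279 over all 18 libraries, and a floor of 3 counts corresponded to 0.18 to 0.262 CPM (counts per 1000000 of the library total, scaled by TMM) in the 6 libraries. The myeloid identity of the cells was visible in all of them, since 15 of 15 monocytic and myeloid markers averaged at least 1 CPM, with a summed level of 3176 to 3341 CPM without LPS and 3045 to 3353 CPM with LPS. Markers of T cells summed to at most 0.165 CPM, those of erythroid cells to at most 0.0826 CPM and those of epithelial cells to at most 0.604 CPM, with CD3D, CD2, KRT19, KRT5, HBB, HBA1 and HBA2 at 0 in all 6. Of 6 macrophage markers, 1 averaged at least 1 CPM. CD14 and CD33 were lower with LPS (log2 fold changes of -1.07 and -0.50, adjusted p = 0.00138 and 0.0137), while the summed monocytic level overlapped between the groups.

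KD_1 stood apart from the other unstimulated libraries. The SD of the log2 difference across 10546 well-expressed genes was 0.371 between KD_2 and KD_3 and 0.264 to 0.295 among the 3 LPS libraries, but 0.542 and 0.465 between KD_1 and its own group, which is as far as KD_1 lay from the LPS libraries (0.477 to 0.490). KD_2 and KD_3 differed from the LPS libraries by 0.585 to 0.662. The GC content of the genes moved with this split. In the 3298 genes lowest in GC content the median deviation from the gene's mean was 0.084 (log2) in KD_1 and 0.059 to 0.12 in the LPS libraries, but -0.141 in KD_2 and -0.117 in KD_3. Across genes the Spearman correlation of the KD log2 fold change with GC content was -0.20. With a correction for GC content in each library it was 0.0048. The number of called genes, 1912 as given below, was then 1989, of which 1666 were among the 1912. Among the 3133 genes called when KD_1 was left out, the median position of KD_1 between the other unstimulated libraries (0) and the LPS libraries (1) was 0.583. Over the genes so called, it was 0.071 for NF-kB subunits and IkB proteins (10 genes) and 0.041 for cytokines (10). It was 0.179 for the integrated stress response (28), 0.619 for endoplasmic reticulum chaperones (10) and 0.832 for cholesterol synthesis (7). These genes were chosen for a difference of KD_2 and KD_3 from the LPS libraries. That choice alone moves the left-out library towards the LPS side, more so where changes are small, so the lists cannot be ranked by it. Because KD_1 stood apart, the counts of each gene list below are followed by those without KD_1, risen and fallen in that order.

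**Figure D1:**
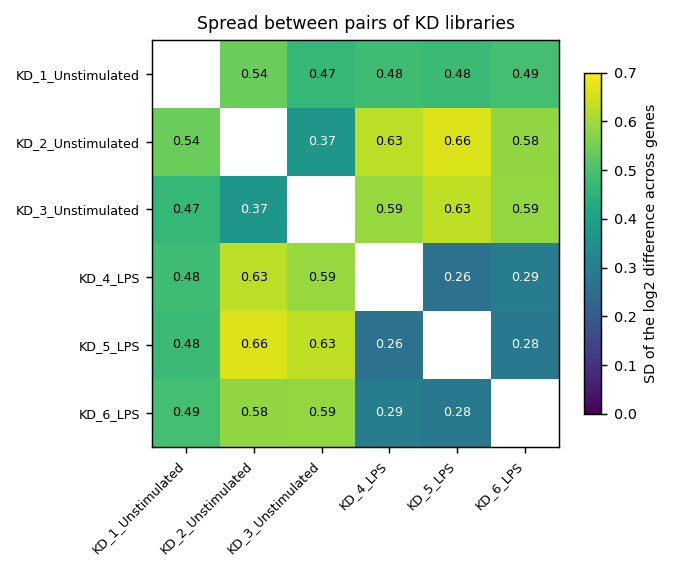
Each cell gives the SD of the log2 difference across 10546 genes between a pair of KD libraries, written in the cell and coloured from 0 to 0.7. The 3 LPS libraries lie within 0.264 to 0.295 of one another, whereas KD_1_Unstimulated is 0.465 or more from every other library.

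The targeted gene was examined first. In GRCh37 the gene TRAFD1 (ENSG00000135148) spans chr12:112563342-112591408 on the plus strand. The siRNA target, shown because it defines the cells of this comparison, lies in coding sequence of exon 10 of 12, at chr12:112589676-112589696, and the deposited counts come from the 3′ end of the gene.
TRAFD1 siRNA target: cccagccgacccattaacaat

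TRAFD1 was counted at 11.6, 5.37 and 9.02 CPM in the unstimulated KD libraries (173, 65 and 116 counts), and at 15.8, 14 and 13.8 CPM in the KD libraries with LPS (181, 233 and 181 counts). The unstimulated SCR and WT libraries ranged from 18.3 to 26.8 CPM, above every KD library, and with LPS they ranged from 11.6 to 27.5 CPM, so that WT_6 (11.6 CPM) lay below all 3 KD libraries with LPS. Within KD the level was higher with LPS, by a factor of 1.66 (log2 fold change 0.73, SE 0.23, adjusted p = 0.0456, edgeR), and the groups did not overlap. This call rested on few libraries: it was lost when any library other than KD_1 was left out (adjusted p of 0.0787 to 0.181), and in an edgeR fit of the 6 KD libraries alone (adjusted p = 0.131). The response of TRAFD1 differed from that in SCR by 0.80 (SE 0.32, adjusted p = 0.612) and from that in WT by 1.0 (SE 0.32, adjusted p = 0.169), and neither difference passed the test.

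Fold changes are given on the log2 scale as fitted by edgeR, with p-values adjusted by the Benjamini-Hochberg method over all genes tested. In whole cultures, fewer cells of a type and less RNA per cell cannot be told apart. LPS changed 1912 genes in KD at an adjusted p under 0.05, which is 11.5% of the 16678 tested. Of these, 1069 (6.41%) were higher and 843 (5.05%) lower with LPS. Both shares are to be set beside the counts of the gene lists below. A rule that also asked for a change of more than 1 on the log2 scale and an adjusted p of at most 0.01 kept 344 genes (2.06%), of which 241 (1.45%) rose and 103 (0.618%) fell. In 4242 genes (25.4%) the 3 LPS libraries did not overlap with the 3 unstimulated ones. The median log2 fold change of all genes was -0.0029. TMM scaling places most genes near no change, so this value cannot show whether all genes shifted together. Without KD_1 the number of called genes was 3150 (1938 higher, 1212 lower), of which 1716 were among the 1912, with edgeR on the 6 KD libraries alone it was 847, and without KD_5 or KD_3 it was 1098 and 1146.

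**Figure D2:**
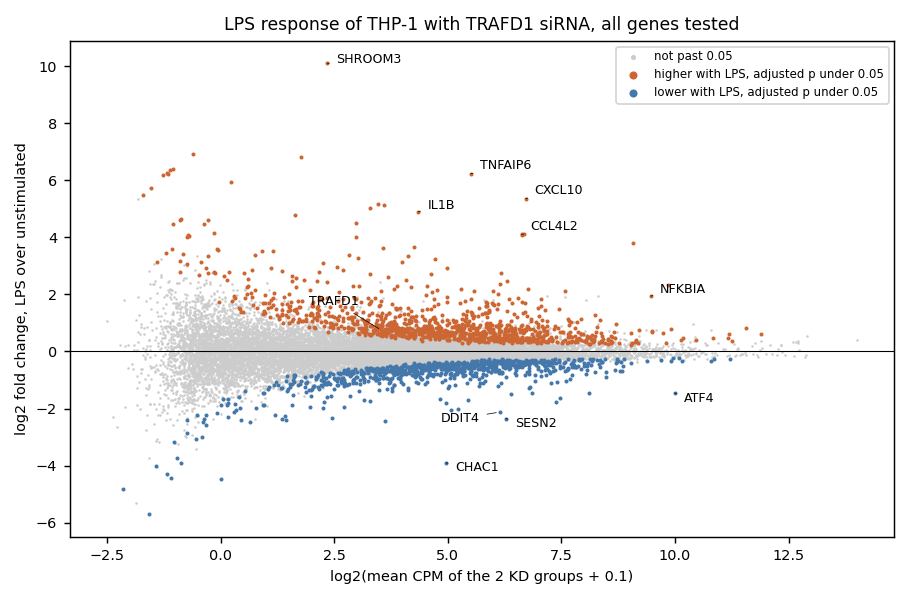
Each point is a gene, placed by its mean level over the 2 KD groups (log2 CPM + 0.1) and its log2 fold change between LPS and unstimulated KD libraries; orange and blue points passed an adjusted p under 0.05. The rises reach further than the falls, with TNFAIP6 at 6.23 and CHAC1 at -3.9; SHROOM3 had no count without LPS, so that its position is not a measured fold.

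TNFAIP6, a secreted hyaluronan-binding protein of inflammation, had the smallest adjusted p of all genes. It was at 1.01, 1.65 and 0.933 CPM in KD_1 to KD_3 and at 101, 88.1 and 79.5 CPM in KD_4 to KD_6, a rise of 75.1-fold (log2 fold change 6.23, SE 0.22, adjusted p = 4.14e-14). CXCL10, a chemokine that attracts T cells through CXCR3, went from 5.98, 4.87 and 3.97 CPM to 245, 196 and 172 CPM (log2 fold change 5.36, SE 0.26, adjusted p = 5.32e-12). The cytokine IL1B, the precursor of interleukin-1 beta, was nearly silent without LPS, at 1.01, 1.49 and 1.48 CPM, and reached 45.7, 38.4 and 33.8 CPM (log2 fold change 4.9, SE 0.29, adjusted p = 1.12e-10). In all of these the lowest LPS library lay more than 20 times above the highest unstimulated one.

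CCL4L2 and CCL4L1, copies of the chemokine gene CCL4 whose reads cannot be told apart, gave nearly the same values, at 13.1, 7.77 and 11.5 CPM without LPS and 186, 182 and 191 CPM with LPS for CCL4L2 (log2 fold change 4.1, SE 0.17, adjusted p = 5.51e-13), and a log2 fold change of 4.09 for CCL4L1. SHROOM3, an actin-binding regulator of cell shape, had 0 counts in all 3 unstimulated libraries and 128, 188 and 98 counts with LPS. Against a floor of 3 counts over the unstimulated group it was at least 133-fold higher with LPS. EBI3, a subunit of the cytokines IL-27 and IL-35, was at 0.134, 0 and 0 CPM and then 7.25, 8.52 and 4.04 CPM (adjusted p = 2.08e-06), CCL20, the ligand of CCR6, at 1.21, 0 and 0.467 CPM and then 20.7, 29 and 14.6 CPM (adjusted p = 2.21e-05), and FAM177B at 0, 1.16 and 0.933 CPM and then 24.7, 23.5 and 21.5 CPM (adjusted p = 3.89e-09). The fitted folds of these 3 genes depend on a handful of counts without LPS.

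Among genes with a solid level in both groups, the lymphoid and myeloid transcription factor POU2F2 rose 4.34-fold, from 67.9, 67.6 and 80.2 CPM to 347, 292 and 297 CPM (log2 fold change 2.12, SE 0.10, adjusted p = 3.55e-12). MTF1, the zinc-sensing transcription factor that drives metallothionein genes, rose 3.14-fold, from 34.4, 32.6 and 33.2 CPM to 105, 109.6 and 100.1 CPM (log2 fold change 1.65, SE 0.09, adjusted p = 5.04e-11). CD40, the TNF receptor family member through which T cells activate antigen-presenting cells, rose from 32.4, 27.8 and 22.2 CPM to 119, 116 and 97.2 CPM (log2 fold change 2.01, SE 0.12, adjusted p = 2.96e-10). The genes named from TNFAIP6 to CD40 were chosen among those whose groups did not overlap, and they passed the threshold under every alternative run, with a highest adjusted p of 0.000399.

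**Figure D3:**
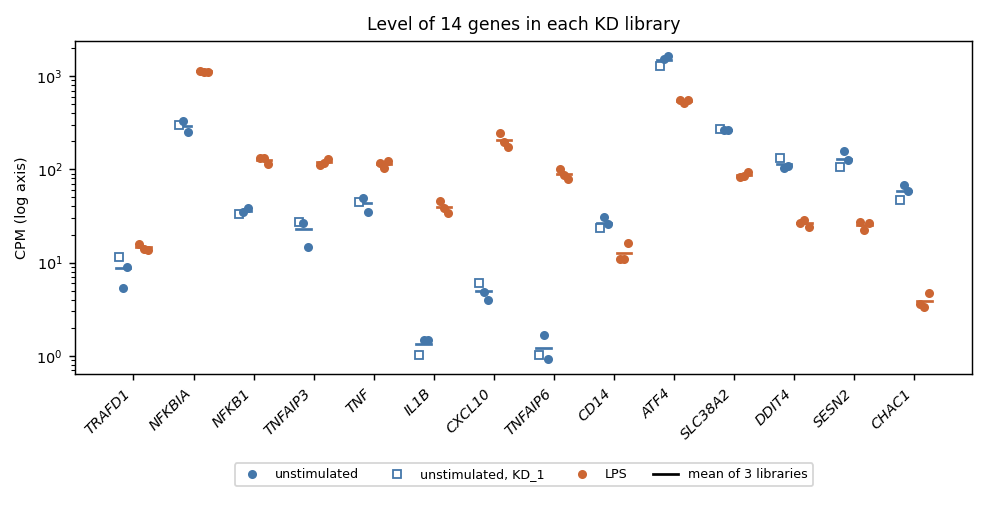
Levels in CPM (log axis) of 14 genes in the unstimulated (blue) and LPS (orange) KD libraries, with the mean of 3 libraries as a bar and KD_1 as an open square. CHAC1 falls from 47.2 to 68.5 CPM to 3.36 to 4.73 CPM, and KD_1 lies with the other unstimulated libraries for CHAC1 and IL1B.

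NF-kB is built from subunits held in the cytoplasm by IkB proteins, several of which are themselves NF-kB targets. In this group 10 of 13 tested genes rose and 1 fell, with a median log2 fold change of 1.05, and 10 rose and 0 fell without KD_1. With all libraries the shares were 76.9% and 7.69%, against 6.41% and 5.05% of all genes, so that the fallen share was near that of all genes. NFKBIA, which encodes IkB alpha, the inhibitor that is degraded and resynthesised in each round of signalling, went from 299.9, 328 and 249 CPM to 1145, 1110 and 1119 CPM (log2 fold change 1.94, SE 0.09, adjusted p = 3.48e-12). The subunit precursors rose as well: NFKB1 (p105/p50) from 33.2, 34.5 and 38.7 CPM to 133, 132 and 114 CPM (log2 fold change 1.83, SE 0.11, adjusted p = 2.67e-10) and NFKB2 (p100/p52) from 14.2, 14.6 and 10.9 CPM to 43.2, 41.5 and 40.4 CPM (log2 fold change 1.65, SE 0.13, adjusted p = 1.01e-08). RELA (p65), the main activating subunit, was at 77.7, 88.6 and 106 CPM and 95.5, 97 and 97 CPM and did not pass the test (log2 fold change 0.09, SE 0.12, adjusted p = 0.68). IKBKB, a catalytic subunit of the IkB kinase, was the 1 member that fell, by 0.31 on the log2 scale (adjusted p = 0.0432), a call that was lost without KD_1 (adjusted p = 0.0808).

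Genes for proteins that restrain the pathway changed as well. Of 15 tested brakes and TRAF adaptors, 7 rose and 1 fell (7 and 2 without KD_1; median 0.36). With all libraries 46.7% rose, against 6.41% of all genes, whereas the 6.67% that fell was near the 5.05% of all genes. TNFAIP3, the ubiquitin-editing enzyme A20, went from 27.5, 26.5 and 14.5 CPM to 111, 117 and 129 CPM (log2 fold change 2.38, SE 0.16, adjusted p = 1.67e-09). Its binding partner TNIP1 rose from 70.8, 81.5 and 70.9 CPM to 223, 196 and 199 CPM (log2 fold change 1.47, SE 0.09, adjusted p = 3.85e-10), and TNIP3 from 0.94, 1.49 and 2.25 CPM to 9.44, 6.54 and 9.07 CPM (log2 fold change 2.42, SE 0.29, adjusted p = 4.68e-06). TAX1BP1, an adaptor of the A20 complex, fell by 0.29 on the log2 scale (adjusted p = 0.0193, up to 0.129 in other fits). TRAFD1, which belongs to the same functional class, has its values above.

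Upstream, 6 of 17 tested genes of the LPS receptor and the MyD88 and TRIF branches rose and 1 fell (7 and 1 without KD_1; median 0.19). Of these 17, 35.3% rose, against 6.41% of all genes, and 5.88% fell, near the 5.05% of all genes. The other 10 did not pass the test, as with IRAK1 at 252, 278 and 269 CPM and 246, 234 and 246 CPM (adjusted p = 0.291). IRAK2 rose from 0.604, 0.578 and 0.622 CPM to 3.93, 3.84 and 5.03 CPM (log2 fold change 2.81, SE 0.41, adjusted p = 7.65e-05), and the kinase gene MAP3K8, which links the receptor to the ERK pathway, from 8.53, 6.78 and 6.38 CPM to 21.8, 13.7 and 19.8 CPM (log2 fold change 1.34, SE 0.19, adjusted p = 5.92e-05). IRAK3, an inhibitory member of the same kinase family, rose more modestly, from 103 ± 17 to 153 ± 13.5 CPM (adjusted p = 0.00144). CD14, the co-receptor that transfers LPS, moved the other way, from 23.6, 30.7 and 25.8 CPM to 10.9, 11 and 16.2 CPM (log2 fold change -1.07, SE 0.21, adjusted p = 0.00138).

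Promoter sequences were read for some of these genes. The windows came from RefSeq (GRCh38.p14) and ran from 250 bases before to 50 bases after each start. They were available for 10721 of the 16678 genes tested, in 15610 windows. The kappa B consensus, on either strand, was present in 6.73% of all windows, 11.9% of the windows of genes that rose and 7.0% of those of genes that fell. It was present in 61.1% of 18 windows of the NF-kB subunit and IkB list and in 77.8% of 9 windows of the chemokine list. For the list of brakes it was 26.9% of 26 windows, and for the cytokine list 27.3% of 22 windows. The 250 bases before the start are shown for 3 genes with large rises, with each kappa B match in capitals. These windows were taken among those that held a match, so they do not stand for genes with large rises in general. The CXCL10 window also held 1 match, further upstream and in capitals too, to the interferon-stimulated response element, searched on both strands as GAAA, any 2 bases and GAAA again. The capitals begin 221 (interferon element), 177 and 122 bases before the start in CXCL10, 81 bases before it in NFKBIA and 67 and 55 bases before it in TNFAIP3.
CXCL10 promoter, chr4:76023498-76023747, minus strand: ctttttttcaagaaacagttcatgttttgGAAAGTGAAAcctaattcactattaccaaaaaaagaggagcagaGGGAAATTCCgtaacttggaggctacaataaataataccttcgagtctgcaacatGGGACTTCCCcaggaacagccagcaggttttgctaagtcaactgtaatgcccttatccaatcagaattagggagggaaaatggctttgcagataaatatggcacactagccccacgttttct
NFKBIA promoter, chr14:35404750-35404999, minus strand: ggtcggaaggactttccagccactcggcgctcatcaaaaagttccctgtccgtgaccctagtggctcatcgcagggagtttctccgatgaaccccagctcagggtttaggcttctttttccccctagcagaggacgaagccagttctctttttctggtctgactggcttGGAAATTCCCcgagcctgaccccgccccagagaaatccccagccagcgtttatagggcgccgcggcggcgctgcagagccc
TNFAIP3 promoter, chr6:137867009-137867258, plus strand: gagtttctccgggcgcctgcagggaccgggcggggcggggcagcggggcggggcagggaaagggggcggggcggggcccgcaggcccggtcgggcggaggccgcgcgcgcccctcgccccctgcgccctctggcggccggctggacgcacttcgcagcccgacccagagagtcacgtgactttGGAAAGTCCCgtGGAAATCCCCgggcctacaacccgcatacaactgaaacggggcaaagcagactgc

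These matches describe letters in a window. Whether any factor bound them was not measured in these data.

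Chemokines had the highest median of the 30 gene lists. Of 26 listed chemokines, 22 could be matched to a counted gene and 14 were tested, with the near-identical CCL4L1 and CCL4L2 counted separately. CCL3 and CCL4 were among those not matched, so the list counts leave them out. Of the 14 tested, 12 rose and 0 fell, with a median log2 fold change of 3.15. The same numbers rose and fell without KD_1, with a median of 4.18. CXCL8, the neutrophil attractant interleukin-8, went from 5.71, 2.31 and 1.17 CPM to 23.6, 40.7 and 30.9 CPM (log2 fold change 3.34, SE 0.42, adjusted p = 1.1e-05), and the monocyte attractant CCL2 from 25.7, 13.9 and 16.1 CPM to 131, 125 and 123 CPM (log2 fold change 2.76, SE 0.20, adjusted p = 4.36e-09). Both were named after their values were seen. CCL22 was 1 of 2 that did not pass the test, with 6.51, 6.94 and 5.75 CPM without LPS and 5.85, 4.68 and 4.57 CPM with LPS (adjusted p = 0.421).

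Of 20 tested cytokines, 11 rose and 0 fell (10 and 0 without KD_1; median 0.91). TNF, a central inflammatory cytokine, stood at 45.2, 49.6 and 34.9 CPM without LPS and went to 117, 103 and 123 CPM, a rise of 2.64-fold (log2 fold change 1.4, SE 0.15, adjusted p = 9.67e-07). LTB, a TNF family ligand, rose 3.03-fold from 55.2, 75.2 and 67.2 CPM to 201, 203 and 194 CPM (log2 fold change 1.6, SE 0.12, adjusted p = 4.95e-09). TNFSF13B, which encodes the B cell survival factor BAFF, was at 145 ± 3.98 to 171 ± 11.5 CPM and did not pass the test (adjusted p = 0.0901). The cytokines IL6, IL10, IL12A, IL12B, LIF, CSF2 and CSF3 were below the filter, with at most 13, 6, 5, 15, 15, 0 and 4 counts in any of the 18 libraries. In the fit without a filter, IL6 (interleukin-6), with 0 counts in KD_1 to KD_3 and 9, 6 and 12 counts in KD_4 to KD_6, passed the threshold (adjusted p = 0.0201, edgeR). IL10, IL12A, IL12B, LIF and CSF3 did not pass there (adjusted p of 0.2 to 1.0), and CSF2 had no count in KD.

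Genes of the immediate-early class responded unevenly. Of 24 tested, 8 rose and 2 fell (median 0.66), and 12 rose and 2 fell without KD_1. With all libraries the shares were 33.3% and 8.33%, against 6.41% and 5.05% of all genes. IER3, a stress-inducible survival factor, rose from 2.82, 9.34 and 3.03 CPM to 50.2, 42.7 and 48.6 CPM (log2 fold change 3.24, SE 0.28, adjusted p = 5.45e-08), although reads of the antisense gene IER3-AS1 overlap it and strand use in the counting is not given in the sources used here. The AP-1 subunits JUN and JUNB rose 1.9-fold and 1.73-fold, JUN from 64.5, 57.4 and 45.3 CPM to 97.5, 113 and 107 CPM (adjusted p = 1.7e-05). FOSL2, another AP-1 subunit, fell from 101, 88.3 and 100.2 CPM to 38, 46.1 and 39.2 CPM (log2 fold change -1.23, SE 0.13, adjusted p = 6.14e-07).

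Feedback on MAP kinases and on cytokine messages rose in part. Of 13 tested phosphatases and related inhibitors, 5 rose and 0 fell (6 and 0 without KD_1). They included DUSP4, from 49.3 ± 4.27 to 89.6 ± 5.17 CPM (adjusted p = 2.92e-05), DUSP2, from 3.69 ± 1.05 to 11 ± 2.87 CPM (adjusted p = 0.000158), and DUSP6, from 47.1 ± 7.36 to 80.8 ± 1.52 CPM (adjusted p = 0.000538). Among 11 regulators of cytokine messenger RNA decay, 4 rose and 0 fell (4 and 0 without KD_1). ZC3H12A, which encodes the ribonuclease Regnase-1 that cleaves cytokine messages, led with 26, 20.7 and 26.2 CPM without LPS and 138, 132 and 131 CPM with LPS (log2 fold change 2.46, SE 0.13, adjusted p = 3.71e-11). Its relatives ZC3H12D and ZC3H12C rose 2.58-fold and 2.08-fold (adjusted p = 0.00089 and 0.00195).

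Interferon-stimulated genes changed by small amounts. Of 40 tested type I interferon-stimulated genes, 14 rose and 1 fell, with a median of 0.27, and 17 rose and 1 fell without KD_1. PARP14, an ADP-ribosyltransferase of the antiviral response, rose from 483, 519.9 and 448 CPM to 619, 662 and 646 CPM (log2 fold change 0.41, SE 0.08, adjusted p = 0.0012), and the double-stranded RNA-activated kinase gene EIF2AK2 from 225, 173 and 181 CPM to 277, 301 and 297 CPM (log2 fold change 0.60, SE 0.11, adjusted p = 0.00133), in a window that overlaps GPATCH11 on the opposite strand. Abundant members were among those that did not pass the test, as with IFI6 at 1944, 2505 and 1895 CPM and 2245, 2121 and 2424 CPM (adjusted p = 0.692) and the membrane protein gene IFITM3 at 1795, 2071 and 1987 CPM and 1809, 1676 and 1752 CPM (adjusted p = 0.188). The interferon-stimulated response element, as searched above, was present in 62.2% of the 45 windows available for this list and in 3.04% of all windows.

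Guanylate-binding proteins, GTPases induced mainly by interferon gamma, had larger values: 4 of 6 tested members rose and 0 fell (4 and 0 without KD_1; median 1.20). GBP2 went from 2.35, 3.8 and 2.25 CPM to 10.8, 12.5 and 17.3 CPM (log2 fold change 2.28, SE 0.26, adjusted p = 3.16e-06), GBP1 from 1.75, 3.88 and 4.12 CPM to 10.7, 12.6 and 12.5 CPM (log2 fold change 1.89, SE 0.24, adjusted p = 9.9e-06) and GBP5 from 13.2, 7.93 and 6.84 CPM to 22.7, 21.4 and 25.3 CPM (log2 fold change 1.3, SE 0.21, adjusted p = 0.000204). These genes share sequence, and how reads were divided between them was not tested. Among 24 interferon regulatory factors, JAKs, STATs and SOCS genes, 5 rose and 0 fell (7 and 0 without KD_1). STAT5A rose from 12.8 ± 1.01 to 30.3 ± 1.85 CPM (adjusted p = 1.39e-06) and SOCS3, a cytokine-inducible inhibitor of JAK signalling, from 1.83 ± 1.4 to 6.95 ± 3.29 CPM (adjusted p = 0.00711, up to 0.073 in other fits).

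In the MHC class I pathway of antigen presentation 3 of 19 tested genes rose and 0 fell (5 and 0 without KD_1). The peptide transporter gene TAP1 rose from 164, 190.4 and 178 CPM to 259, 255 and 237 CPM (log2 fold change 0.50, SE 0.08, adjusted p = 0.000272), and HLA-F passed the test although its libraries overlapped and the call was lost in other fits, with 44.6, 11.1 and 22.1 CPM without LPS and 67.1, 66.1 and 41.5 CPM with LPS (adjusted p = 0.0366). Of 9 tested MHC class II genes 0 passed by edgeR, and 2 passed without KD_1, 1 in each direction. CD74, the invariant chain, was at 103, 115 and 131 CPM and 99.3, 92 and 99.2 CPM (adjusted p = 0.115, and 0.0323 without KD_1).

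Cell surface molecules moved in both directions. Of 18 tested costimulatory and adhesion molecules, 7 rose and 2 fell (6 and 2 without KD_1). These are 38.9% and 11.1%, against 6.41% and 5.05% of all genes. ICAM1, the ligand of beta-2 integrins, rose 6.55-fold, from 7.92, 5.37 and 6.3 CPM to 43.6, 37.9 and 47.8 CPM (log2 fold change 2.71, SE 0.21, adjusted p = 1.01e-08; ICAM4-AS1 overlaps it on the opposite strand), and CD83, a marker of mature antigen-presenting cells, rose 3.04-fold, from 29.3, 28.4 and 26.6 CPM to 93.2, 88.4 and 74.8 CPM (log2 fold change 1.6, SE 0.12, adjusted p = 7.32e-09). SELPLG, the P-selectin ligand used in rolling, fell from 51, 60.5 and 56.1 CPM to 32.1, 31.8 and 35.4 CPM (log2 fold change -0.75, SE 0.12, adjusted p = 0.000236). The abundant integrin chain ITGB2 was at 2588 ± 87.7 to 2763 ± 32.9 CPM and did not pass the test (adjusted p = 0.549).

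Among survival and inflammasome genes the shares that fell, 5.56% and 7.69%, were near the 5.05% of all genes. The shares that rose were 27.8% and 15.4%, against 6.41% of all genes. Of 18 tested BCL2 family members and caspase inhibitors, 5 rose and 1 fell (5 and 1 without KD_1). BIRC3 (cIAP2) rose from 9.47, 7.6 and 6.53 CPM to 35, 43.3 and 37.8 CPM (log2 fold change 2.29, SE 0.17, adjusted p = 4.36e-09), BCL2A1, an anti-apoptotic NF-kB target, from 4.1, 3.39 and 3.34 CPM to 23.9, 21.8 and 20.4 CPM (log2 fold change 2.6, SE 0.25, adjusted p = 3.05e-07), and BBC3 (PUMA), a pro-apoptotic gene, fell from 52, 67 and 63.6 CPM to 36.1, 29.6 and 34 CPM (log2 fold change -0.87, SE 0.13, adjusted p = 8.67e-05). Of 13 tested inflammasome and pyroptosis genes, 2 rose and 1 fell, but 4 rose and 4 fell without KD_1. NINJ1, which ruptures the membrane of dying cells, rose from 40.2, 38.8 and 27.8 CPM to 98.7, 95.5 and 104 CPM (log2 fold change 1.48, SE 0.16, adjusted p = 1.24e-06), and the flagellin-pathway inflammasome gene NLRC4 fell from 5.51, 7.11 and 9.56 CPM to 2.1, 2.1 and 2.21 CPM (log2 fold change -1.78, SE 0.26, adjusted p = 7.46e-05).

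In oxidant defence 9 of 18 tested genes rose and 1 fell (10 and 1 without KD_1; median 0.38). The risen share was 50.0%, against 6.41% of all genes, and the fallen share, 5.56%, was near the 5.05% of all genes. Of 20 listed genes, 19 could be matched to a counted gene. HMOX1, the haem-degrading enzyme, went from 33, 46.2 and 39.2 CPM to 186, 157 and 192 CPM (log2 fold change 2.18, SE 0.17, adjusted p = 7.25e-09), GCLM, a subunit of the first enzyme of glutathione synthesis, from 110.4, 83.9 and 82.2 CPM to 267, 259.7 and 242 CPM (log2 fold change 1.47, SE 0.13, adjusted p = 1.02e-07), and the thioredoxin reductase TXNRD1 from 87.2, 51.2 and 57.3 CPM to 185, 208 and 174 CPM (log2 fold change 1.53, SE 0.19, adjusted p = 8.96e-06). NCF4, a subunit of the phagocyte oxidase, fell by 0.36 on the log2 scale (adjusted p = 0.0074, up to 0.069 in other fits). Among 14 inflammatory metabolic enzymes 5 rose and 0 fell (6 and 0 without KD_1), with GCH1 (tetrahydrobiopterin synthesis) from 18.6 ± 3.17 to 64.1 ± 10.5 CPM (adjusted p = 1.46e-08) and KYNU (kynurenine pathway) from 23.5 ± 6.41 to 103 ± 12 CPM (adjusted p = 7.84e-08).

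Zinc handling and the extracellular matrix also held genes that rose. Besides MTF1, the zinc exporter gene SLC30A1 rose from 53.9 ± 9.95 to 103 ± 0.874 CPM (adjusted p = 1.44e-05), and in all 4 of 10 tested metallothionein and zinc transport genes rose and 0 fell (4 and 0 without KD_1). PTX3, a soluble pattern recognition receptor, rose from 17.3, 12.8 and 11.7 CPM to 65.6, 69.8 and 57.9 CPM (log2 fold change 2.2, SE 0.17, adjusted p = 7.56e-09) and F3 (tissue factor) from 18.1, 10.1 and 7.93 CPM to 38.6, 35.9 and 28.7 CPM (log2 fold change 1.5, SE 0.25, adjusted p = 0.000363). With TNFAIP6, 6 of 16 tested matrix and plasminogen genes rose (7 and 1 without KD_1), and the 1 that fell was TIMP2 (log2 fold change -0.41, adjusted p = 0.00668). The risen share of this list was 37.5%, against 6.41% of all genes, and the fallen share, 6.25%, was near the 5.05% of all genes.

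**Figure D4:**
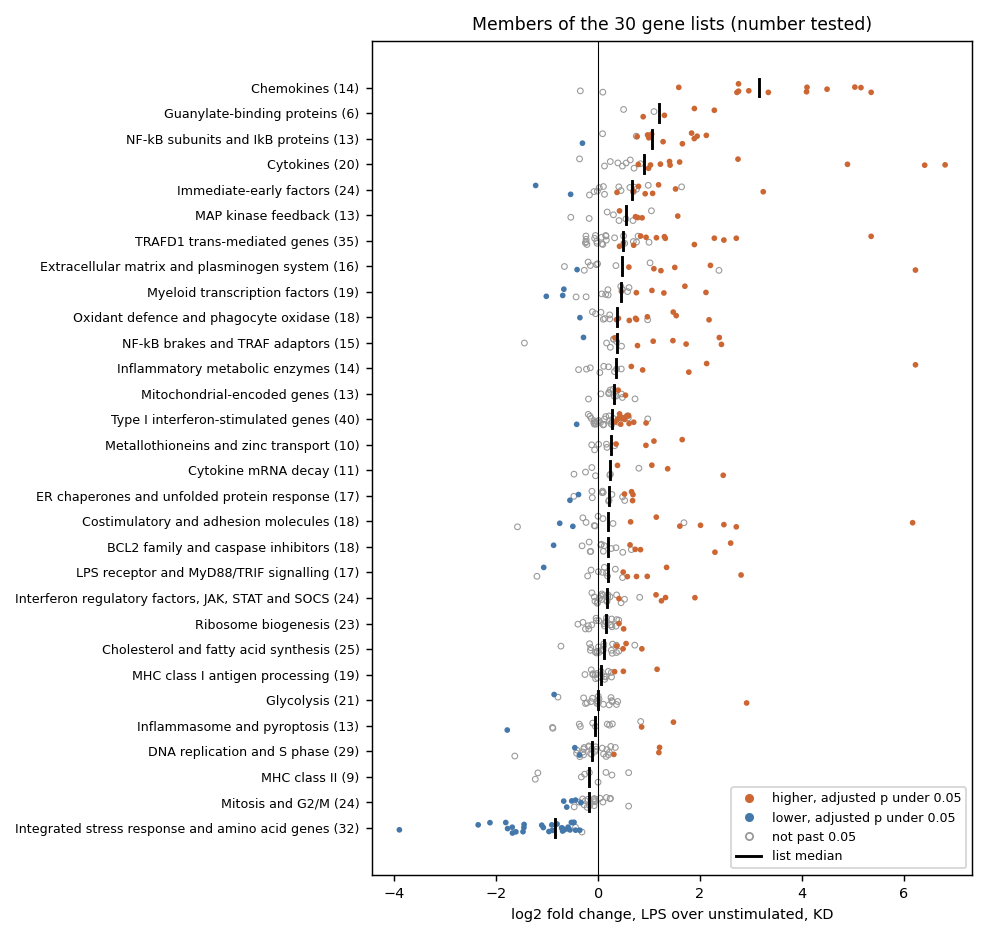
Log2 fold change between LPS and unstimulated KD libraries for the tested members of 30 gene lists, ordered by the list median (black bar), with filled points for members past an adjusted p under 0.05. Chemokines have the highest median (3.15) and genes of the integrated stress response the lowest (-0.85), with 30 of 32 members lower.

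The integrated stress response had the lowest median of the 30 lists. In this pathway kinases that sense amino acid shortage, unfolded proteins, haem deficiency or double-stranded RNA phosphorylate eIF2 alpha, which favours translation of the transcription factor ATF4, and ATF4 then drives genes of amino acid synthesis, amino acid transport and transfer RNA charging. Of 32 tested genes of this list, 0 rose and 30 fell, against 843 (5.05%) of all genes, with a median log2 fold change of -0.85. Without KD_1, 28 fell and the median was -0.89. In the SCR and WT conditions 29 and 30 of the same genes fell with LPS, with medians of -1.01 and -1.0.

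CHAC1, an enzyme that degrades glutathione and a target of ATF4, fell 15-fold, from 47.2, 68.5 and 58.7 CPM to 3.58, 3.36 and 4.73 CPM (log2 fold change -3.9, SE 0.20, adjusted p = 9.58e-12). ATF4 itself was at 1296, 1534 and 1654 CPM and fell to 552, 520.2 and 561 CPM (log2 fold change -1.46, SE 0.10, adjusted p = 1.06e-09), with the limit that its processed pseudogene copies can share its reads. DDIT3 (CHOP), a pro-apoptotic factor downstream of ATF4, fell from 119, 125 and 126 CPM to 39.5, 38.8 and 54.6 CPM (log2 fold change -1.48, SE 0.13, adjusted p = 6.44e-08), in a window that overlaps MARS1 on the opposite strand. TRIB3, a pseudokinase that feeds back on ATF4, fell from 216, 324 and 234 CPM to 70.6, 75 and 79.9 CPM (log2 fold change -1.78, SE 0.14, adjusted p = 1.46e-08).

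A pair of inhibitors of the growth kinase complex mTORC1 fell. SESN2, a sestrin that senses leucine, went from 105, 157 and 126 CPM to 27, 22.2 and 26.8 CPM (log2 fold change -2.36, SE 0.14, adjusted p = 2.14e-10), and DDIT4 (REDD1) from 133, 103 and 109 CPM to 26.3, 28.6 and 24.1 CPM (log2 fold change -2.12, SE 0.12, adjusted p = 1.12e-10). Genes of amino acid supply fell with them. The neutral amino acid transporter gene SLC38A2 went from 274, 262 and 266 CPM to 83.5, 85 and 93.5 CPM (log2 fold change -1.62, SE 0.09, adjusted p = 5.33e-11). PSPH, the last enzyme of serine synthesis, fell from 37.5, 45.4 and 45.7 CPM to 13.6, 15.6 and 10.7 CPM (log2 fold change -1.68, SE 0.15, adjusted p = 6.64e-08), and GPT2, a mitochondrial alanine transaminase, from 149, 176 and 144 CPM to 70.9, 64.3 and 64.8 CPM (log2 fold change -1.23, SE 0.11, adjusted p = 6.41e-08). ASNS, asparagine synthetase, fell from 294, 363 and 345 CPM to 206, 175 and 191 CPM (log2 fold change -0.81, SE 0.09, adjusted p = 4.41e-06), and was named after its values were seen.

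In promoters, the C/EBP-ATF response element, searched on both strands as TGATGNAA, was present in 2.08% of all windows, in 4.57% of the windows of genes that fell and in 2.48% of those of genes that rose. It was present in 20.9% of the 43 windows available for the integrated stress response list, and 9 of its 28 genes with a window held it. Windows of CHAC1 and ASNS, taken among those that held it, are shown with the match in capitals, beginning 209 and 68 bases before the start.
CHAC1 promoter, chr15:40953221-40953470, plus strand: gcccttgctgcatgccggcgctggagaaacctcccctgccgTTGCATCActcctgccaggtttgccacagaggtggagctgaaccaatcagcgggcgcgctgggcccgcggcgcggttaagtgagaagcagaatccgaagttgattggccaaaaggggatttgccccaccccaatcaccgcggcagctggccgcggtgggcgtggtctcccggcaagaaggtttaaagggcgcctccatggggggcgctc
ASNS promoter, chr7:97872409-97872658, minus strand: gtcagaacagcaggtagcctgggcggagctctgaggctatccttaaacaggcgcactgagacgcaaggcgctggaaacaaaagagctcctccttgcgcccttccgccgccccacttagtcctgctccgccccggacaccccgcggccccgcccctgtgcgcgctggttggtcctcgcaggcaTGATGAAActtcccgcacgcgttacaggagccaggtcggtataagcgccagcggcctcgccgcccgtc

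Other genes with large falls encoded secreted factors and a membrane enzyme. INHBE, a subunit of activin E, fell from 48.3, 55.9 and 58.1 CPM to 8.13, 14.9 and 16.2 CPM (log2 fold change -2.04, SE 0.19, adjusted p = 1.22e-07), ADM2, a peptide hormone of the adrenomedullin family, from 20.5 ± 2 to 3.76 ± 0.348 CPM (log2 fold change -2.44, SE 0.23, adjusted p = 1.85e-07), and GUCY2F, a guanylate cyclase known from photoreceptors, from 5.98, 10.8 and 10.2 CPM to 0.874, 1.92 and 2.44 CPM (log2 fold change -2.33, SE 0.31, adjusted p = 2.58e-05).

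Transcription factors of the myeloid lineage divided, with 6 of 19 tested members higher and 3 lower (8 and 3 without KD_1). POU2F2, which rose, has its values above. The 3 that fell were GFI1, a transcriptional repressor, from 240.4, 279 and 259 CPM to 131, 128 and 126 CPM (log2 fold change -1.02, SE 0.08, adjusted p = 2.33e-08), MYB, from 563, 506 and 571 CPM to 354, 343 and 331 CPM (log2 fold change -0.67, SE 0.09, adjusted p = 1.26e-05), and CEBPB, from 154, 120.1 and 135 CPM to 88.3, 89.3 and 74.9 CPM (log2 fold change -0.70, SE 0.13, adjusted p = 0.000988).

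The last question was whether the response with the TRAFD1 siRNA differed from that of the other conditions. LPS changed 2869 genes (17.2%) in SCR and 2380 (14.3%) in WT. Of the 1912 genes called in KD, 1188 were also called in SCR, which is 62.1% of the KD and 41.4% of the SCR calls, and 994 in WT, which is 52.0% of the KD and 41.8% of the WT calls. In KD and SCR 1186 of the 1188 shared genes had the same direction. In KD and WT it was 992 of 994.

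The difference between the LPS responses of KD and SCR passed the threshold in 0 genes (0.0%) by edgeR. Before adjustment, p lay below 0.05 for 1274 genes. By DESeq2 there were 3 genes past the adjusted threshold, all with low counts. They were the antisense RNA RP11-196G18.23, the pseudogene AC138783.11 and the non-coding RNA ENSG00000240291, for which no symbol was given, with differences between KD and SCR of 2.97, 3.71 and 1.99 (log2, with SE of 0.55, 0.77 and 0.38 and adjusted p of 0.274, 0.375 and 0.274 in edgeR). By edgeR the pseudogene SEM1P1 was also among the 3 smallest p-values (difference 6.72, adjusted p = 0.375), and its reads came mostly from KD_6, at 1.22, 1.02 and 15.1 CPM in KD_4 to KD_6. For TNF the difference between KD and SCR was -0.33 with an SE of 0.21, for NFKBIA 0.12 with an SE of 0.12, for CXCL10 0.47 with an SE of 0.33 and for CHAC1 -0.02 with an SE of 0.27. None of these differences passed the test.

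Against WT, 60 genes (0.36%) responded differently, of which 10 had a higher and 50 a lower log2 fold change in KD. In 45 of the 50 the fitted log2 fold change was above 0 in both conditions and smaller in KD, and 39 of these passed the threshold in both. The balance depended on the libraries, the filter and the model. Without KD_1, 953 genes were higher and 360 lower in KD, and without a filter on low counts 536 were higher and 193 lower. With the replicate number of the labels fitted as a block, 368 were higher and 179 lower. CCL4L2 rose by 4.1 (log2) in KD, by 4.44 in SCR and by 6.72 in WT, a difference between KD and WT of -2.62 (SE 0.25, adjusted p = 8.14e-06). TNF rose by 1.4 in KD, 1.73 in SCR and 3.16 in WT (difference to WT -1.76, SE 0.21, adjusted p = 0.000101), and CD83 by 1.6, 1.51 and 3.06 (difference to WT -1.45, SE 0.17, adjusted p = 0.000101). TNIP1, ZC3H12A, HMOX1, ICAM1 and TNFAIP6 were also in this group. Near-identical copies such as CCL4L1 and CCL4L2 are counted separately in the 60. The comparisons with SCR and with WT share the 6 KD libraries. Of the 32 tested genes of the integrated stress response, 0 passed the threshold against WT. With 0.36% of all genes past it, this count does not set the list apart. KD and WT differ in the siRNA and its target at once, and also in the lipid reagent if WT was untreated. These cannot be told apart in this comparison. The number of genes that differed from WT was 1313 in all without KD_1 and 176 without WT_2, whereas it was 21 without KD_6, 22 without KD_5, 25 without KD_2, 35 without KD_4 and 24 to 28 without WT_1, WT_4, WT_5 or WT_6.

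**Figure D5:**
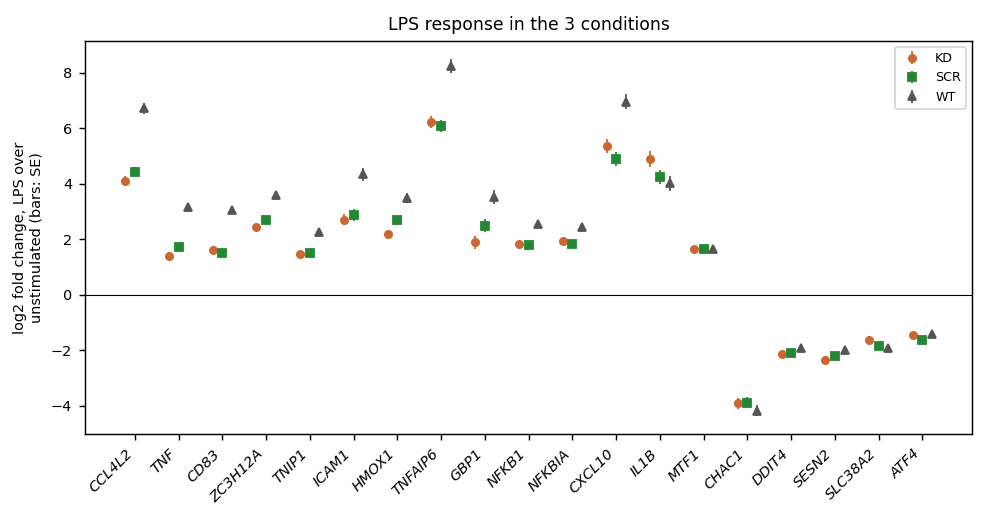
Log2 fold change between LPS and unstimulated libraries in KD, SCR and WT (bars are SE of the edgeR fit, 3 libraries per group and stimulation). For CCL4L2 and TNF the KD and SCR values lie below the WT value (4.1 and 4.44 against 6.72 for CCL4L2), whereas the 3 conditions lie close together for MTF1 and for the stress response genes on the right.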

How the data were processed

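RNA of 18 THP-1 libraries was sequenced as 3′ tags (QuantSeq). The authors aligned reads with HISAT to GRCh37 and deposited raw counts per gene, made with featureCounts over the last 500 bases of each gene; strand use is not given in the sources used here. Reads from overlapping or near-identical genes can therefore be shared. Genes were named through a GENCODE annotation of GRCh37 (55665 with a symbol). Counts were fitted with edgeR (version 4.0.16, R 4.3.3; TMM, filterByExpr, quasi-likelihood F test, 6 group means, all 18 libraries), with Benjamini-Hochberg adjustment and a threshold of 0.05. DESeq2 (1.42.0), RLE size factors, no filter, a GC correction, fits of the 6 KD libraries and fits with each library left out were alternatives. For the comparisons between conditions a block for the replicate number was a further alternative. On simulated counts for the KD comparison over 16678 genes, 75% of genes changed by 1 (log2) and 94% of those changed by 2 were recovered, with 4.52% false calls. The changed genes were drawn from those with a mean above 1 CPM. The simulated counts held no library set apart as KD_1 was, no shift with GC content and no spread particular to a gene. These rates may therefore not hold for the data. The members and lists were chosen with earlier results of these data known. The text names TRAFD1; per direction the 12 genes with the smallest adjusted p and the 6 with the largest change at 5 CPM or more, with groups that did not overlap; genes from up to 3 per direction and 2 not past the threshold in each list; and the leading genes of each interaction. A few genes that this rule selects are not reported here. ASNS, CXCL8, CCL2 and AC138783.11 were added after their values were seen. Floors of 3 counts cover counting error only.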

Additional observations from a re-analysis of the deposited data

Results flagged for a closer look

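The genes below were singled out because the LPS response in KD differed from that in WT at an adjusted p under 0.05 (edgeR interaction term). Values are the log2 fold change in KD minus that in WT. The response was smaller in KD for chemokine and cytokine genes, with differences of -2.62 in CCL4L2, -2.63 in CCL4L1, -1.76 in TNF and -0.88 in LTB. It was smaller for inhibitors and subunits of NF-kB signalling, with differences of -0.72 in NFKB1, -0.78 in TNIP1 and -1.05 in TNFAIP3, and for the ribonuclease gene ZC3H12A, with a difference of -1.14. Surface and secreted proteins with a smaller response were ICAM1 (-1.63), CD83 (-1.45) and TNFAIP6 (-2.03). Others that rose less in KD were GBP1 (-1.65), HMOX1 (-1.3) and PSTPIP2 (-0.89). A pair of IDs for which no symbol was given, ENSG00000129277 (-2.57) and ENSG00000006075 (-1.92), also rose less in KD. The log2 fold changes of ENSG00000129277 in KD and WT, 4.11 and 6.67, lay near those of CCL4L2, 4.10 and 6.72. Those of ENSG00000006075, 1.84 and 3.76, lay near those of the chemokine gene CCL3L1, 1.58 and 3.41. Whether these genes share reads was not tested, so they may not be separate observations. The antisense RNA RP11-196G18.23 was the exception among the genes named, with a higher value in KD (2.99), at 0.467 to 0.873 CPM without LPS and 1.56 to 2.36 CPM with LPS in KD. The SCR values lay beside them: the log2 fold changes in KD, SCR and WT were 2.71, 2.89 and 4.34 for ICAM1 and 6.23, 6.08 and 8.26 for TNFAIP6. None of these genes passed the test of KD against SCR by edgeR.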

How the results depend on the processing

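The 1912 genes called in KD became 1208 with DESeq2 on the 6 KD libraries without a filter (28654 genes tested) and 847 with edgeR on the 6 KD libraries with the filter (15188 genes), and 1098 to 3150 when 1 KD library was left out (3150 without KD_1, 1098 without KD_5, 1146 without KD_3). The 344 genes of the size rule became 207 with edgeR on the 6 KD libraries and 258 to 686 when 1 KD library was left out, 686 without KD_1. With RLE size factors, without a filter, with a GC correction and with DESeq2 on 18 libraries, the called genes were 1921, 2238, 1989 and 2281. Of these, 1862, 1608, 1666 and 1879 were among the 1912. For KD against SCR the 0 genes became 3 with DESeq2 and 132 without a filter on low counts. For KD against WT the 60 genes became 239 with DESeq2, 729 without the filter (536 higher in KD, 193 lower), and 21 to 1313 with 1 KD or WT library left out, 1313 without KD_1 (953 higher, 360 lower) and 176 without WT_2; 10 of the 60 were higher. Shared replicate numbers paired the samples in part at most. The correlations of deviations ran from -0.148 to 0.278 between KD and SCR. Between KD and WT they ran from -0.110 to 0.609, the highest for KD_1 with WT_1. In each comparison 3 of 6 KD libraries correlated best with their own number. With the replicate number as a block, 0 genes differed from SCR and 547 from WT (368 higher in KD, 179 lower). The log2 fold change of TRAFD1 was 0.73 in both fits of the 6 KD libraries, where it did not pass the test (adjusted p = 0.0887 with DESeq2 and 0.131 with edgeR), and 0.49 to 1.01 when 1 library was left out. Among the genes named, under these alternatives, the direction of the KD response turned only in RELA and AC138783.11, which did not pass the test: with 1 library left out RELA ranged from -0.014 (without KD_1) to 0.22 and AC138783.11 from -0.56 to 0.11 (without KD_3). The causes were not tested. Depth limits genes under about 0.26 CPM, where 3 counts or fewer are expected.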

Other observations

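Lists of housekeeping pathways are given beside the 6.41% of all genes that rose and the 5.05% that fell with LPS in KD. Among 17 tested endoplasmic reticulum chaperones and unfolded protein response genes, 4 rose and 2 fell, and 8 rose and 2 fell without KD_1. DNAJC3, an inhibitor of the eIF2 alpha kinase PERK, rose from 74 ± 14.6 to 118 ± 4.24 CPM (log2 fold change 0.68, SE 0.14, adjusted p = 0.00309), and the growth factor-like chaperone gene MANF from 138 ± 17 to 197 ± 11.3 CPM (log2 fold change 0.52, SE 0.12, adjusted p = 0.00758). XBP1, a transcription factor of the unfolded protein response, fell from 244 ± 18.8 to 187 ± 6.6 CPM (log2 fold change -0.39, SE 0.09, adjusted p = 0.00712), and SEL1L, part of the machinery that exports misfolded proteins, from 113 ± 5.22 to 77 ± 5.93 CPM (log2 fold change -0.55, SE 0.09, adjusted p = 0.000448). KD_1 lay nearer to the LPS libraries than to KD_2 and KD_3 in 60.0% of the 10 genes of this list that were called without it. This was near the 55.7% of all 3133 genes so called. In cholesterol and fatty acid synthesis 4 of 25 tested genes rose and 0 fell (16.0% and 0.0%), but 7 rose without KD_1. The median position of KD_1 was 0.832 over the 7 genes called without it, a choice that favours positions above 0. STARD4, a carrier of cholesterol between membranes, rose from 27.2 ± 4.04 to 49.3 ± 4.78 CPM (log2 fold change 0.86, SE 0.14, adjusted p = 0.000293). Of 21 glycolysis genes 1 rose and 1 fell (4.76% each, below the shares of all genes), with 2 and 2 without KD_1, and both encode sugar transporters of one family. SLC2A6 rose from 5.64, 9.83 and 6.61 CPM to 52.6, 56.6 and 56.3 CPM (log2 fold change 2.92, SE 0.21, adjusted p = 2.33e-09), whereas SLC2A3 fell from 31.7, 35.5 and 31.9 CPM to 19.8, 19 and 15.5 CPM (log2 fold change -0.86, SE 0.13, adjusted p = 0.000128).

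Of 24 tested mitosis genes 0 rose and 5 fell (20.8%, and 6 fell without KD_1), and the median was -0.18. AURKB, a kinase of chromosome segregation, fell from 70.3 ± 4.82 to 45.8 ± 3.26 CPM (log2 fold change -0.62, SE 0.13, adjusted p = 0.00268), and PLK1, another mitotic kinase, from 82.5 ± 7.23 to 51.7 ± 6.22 CPM (log2 fold change -0.68, SE 0.12, adjusted p = 0.00068), in a window that overlaps ERN2 on the opposite strand. Of 29 DNA replication and S phase genes 3 rose and 2 fell (10.3% and 6.9%, near the shares of all genes), whereas 2 rose and 5 fell without KD_1. CCND1 (cyclin D1) rose from 8.62 ± 1.34 to 19.9 ± 2.04 CPM (log2 fold change 1.21, SE 0.15, adjusted p = 9.4e-06). Ribosome biogenesis held 2 risen and 0 fallen genes of 23 (8.7% risen, near the share of all genes), with 4 and 1 without KD_1, and the mitochondrial genome 2 risen and 0 fallen of 13, with 1 and 1 without KD_1. A list of 41 genes that the study had tied to TRAFD1 in other blood samples had 35 tested members, of which 13 rose with LPS in KD and 0 fell (14 and 1 without KD_1; median 0.49, against -0.0029 for all genes). In the SCR and WT conditions 12 and 16 of them rose. Besides CXCL10, ICAM1, TAP1 and guanylate-binding proteins, they included PSTPIP2, an adaptor of the actin cytoskeleton, from 30.9 ± 5.2 to 77.1 ± 6.04 CPM (log2 fold change 1.32, SE 0.11, adjusted p = 4.84e-08). APOL6, a member that did not pass, was at 263 ± 10.3 to 276 ± 11.8 CPM (adjusted p = 0.651).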
